A study of Canis lupus familiaris with 12 samples.

Results

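The last 2 days of a 3-day exposure to masitinib were examined by setting the 3 arrays of cultures kept with 100 nM masitinib for 72 h against the 3 arrays of cultures kept with the same dose for 24 h. These 6 arrays, chosen by the time point in their titles, are 6 of 12, and the other 6 hold cultures before treatment (0 h, no agent) and after 12 h of masitinib. All cultures were flasks of C2, an established line from a canine mast cell tumour whose mutated stem cell factor receptor KIT signals without ligand. Masitinib, a small molecule, inhibits KIT, the platelet-derived growth factor receptors and the kinases LYN and FYN. Both groups were treated, so the comparison asks what happened to the transcripts after the response of the first day was in place. Untreated cultures of the same age are not analysed here, so that time with masitinib and time in the flask cannot be told apart.

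KIT drives survival, division and differentiation of mast cells. It does so through the RAS and ERK cascade, whose rapid transcriptional targets are the FOS, JUN and EGR factors and the phosphatases and Sprouty proteins that dampen ERK, through PI3K and AKT, which hold the FOXO factors out of the nucleus, and through STAT5. Mast cells store proteases, histamine and heparin in granules, carry the high-affinity IgE receptor, and make leukotrienes and cytokines.

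Transcript levels came from Affymetrix Canine Genome 2.0 arrays as the authors' log2 values, where a difference of 1 is a 2-fold change and each gene is read by 1 or more probe sets. The 111 control probe sets were left out of the limma fit, which took in 42924 others on all 12 arrays, and calls needed a change over 1.5-fold with p under 0.001 after Benjamini-Hochberg adjustment. Pairs of 24 h arrays correlated over the probe sets with r of 0.9964 to 0.9979, pairs of 72 h arrays with 0.9952 to 0.9973, and a 24 h with a 72 h array with 0.9897 to 0.9927. The arrays' added poly-A RNA controls averaged 9.05 ± 0.139 at 24 h and 8.92 ± 0.109 at 72 h (SD, n = 3 each), and actin probe sets of the 3' end exceeded those of the 5' end by 1.05 ± 0.24 and 1.17 ± 0.253 (SD, n = 3 each). The replicates are flasks of 1 cell line, and p-values measure only the spread between them, which may be technical. In such bulk samples fewer cells of a kind and less RNA per cell cannot be told apart.

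Over the 29254 probe sets with 1 gene symbol, 492 rose from 24 h to 72 h (1.68%) and 516 fell (1.76%), which is 1008 in all (3.45%). The median absolute change of these called probe sets, without regard to direction, was 0.78 on the log2 scale, 239 of them passed 2-fold and 18 passed 4-fold. Counted by gene, with the probe set of the highest mean over all 12 arrays standing for each of 15115 genes, 297 genes rose (1.96%) and 274 fell (1.81%), together 571 (3.78%). Of 13670 probe sets without 1 symbol 406 rose (2.97%) and 163 fell (1.19%). The fit with the 6 arrays of 24 h and 72 h alone called 273 rises and 264 falls. When the arrays were scaled to the poly-A controls, the median of all genes shifted by 0.13, 716 probe sets were called as rises and 254 as falls, and 73.8% of the calls were rises in place of 48.8%, and all changes given here are relative to the array's own distribution.

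The largest rise belonged to GKN1, gastrokine 1, a protein secreted by the stomach lining. Its values were 7.69, 7.38 and 7.53 on the 24 h arrays and 10.51, 10.44 and 10.75 on the 72 h arrays, a log2 change of 3.03 (SE 0.155, adjusted p = 1.15e-07 from limma, 8.17-fold). PECAM1, an adhesion molecule of endothelial cells, platelets and leukocytes, was next. It went from 5.96, 5.55 and 5.11 to 8.12, 8.05 and 8.28, a change of 2.61 (SE 0.177, adjusted p = 9.08e-07), with 2 of its 4 probe sets called. CD5L, a soluble protein that macrophages secrete, had 7.21, 6.50 and 6.78 at 24 h and 9.05, 9.06 and 9.54 at 72 h (change 2.39, SE 0.171, adjusted p = 1.42e-06). In none of these 3 genes did an array of 72 h come down to one of 24 h, and their 24 h values were already above the 0 h means of 5.62, 3.87 and 4.94.

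IL13, a cytokine of allergic inflammation that mast cells make, measured 6.71, 5.88 and 6.23 at 24 h and 8.64, 8.18 and 8.94 at 72 h, a change of 2.31 (SE 0.207, adjusted p = 7.86e-06). The hormone PTH, parathyroid hormone, rose by 2.10 (SE 0.0738) from 9.15, 8.97 and 8.99 to 11.04, 11.22 and 11.13. GGT1, an enzyme at the cell surface that cleaves glutathione and leukotriene C4, rose by 2.39 (SE 0.16) from a mean of 4.98 to 7.37 with both of its probe sets called. PEBP4, of the phosphatidylethanolamine-binding protein family, rose by 2.19 (SE 0.079), while its second probe set changed by 0.37 and was not called. Among these 4 genes PTH was the one also called higher at 12 h than at 0 h, by 0.87.

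SERPINE2, an inhibitor of thrombin and related proteases, rose from 9.83, 9.69 and 9.81 to 11.58, 11.64 and 11.21 (change 1.70, SE 0.112), and all 3 of its probe sets were called. AVEN, an inhibitor of apoptosis, rose by 1.84 (SE 0.13), the histone gene H4-16 by 1.85 (SE 0.124) and TNFAIP8L3, which carries phosphoinositides between membranes, by 1.80 (SE 0.11). ABLIM1, an actin-binding protein, rose by 1.75 (SE 0.0923) on 3 of 11 probe sets, and the others went down to a change of -0.23. SLFN14, a ribonuclease, went from 4.06, 3.84 and 3.77, near the dim end of the scale, to 5.73, 5.50 and 5.67 (change 1.74, SE 0.0947). Of the 2 genes left among the 15 largest rises, CCL2 and FOS, the course is given further on.

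**Figure D1:**
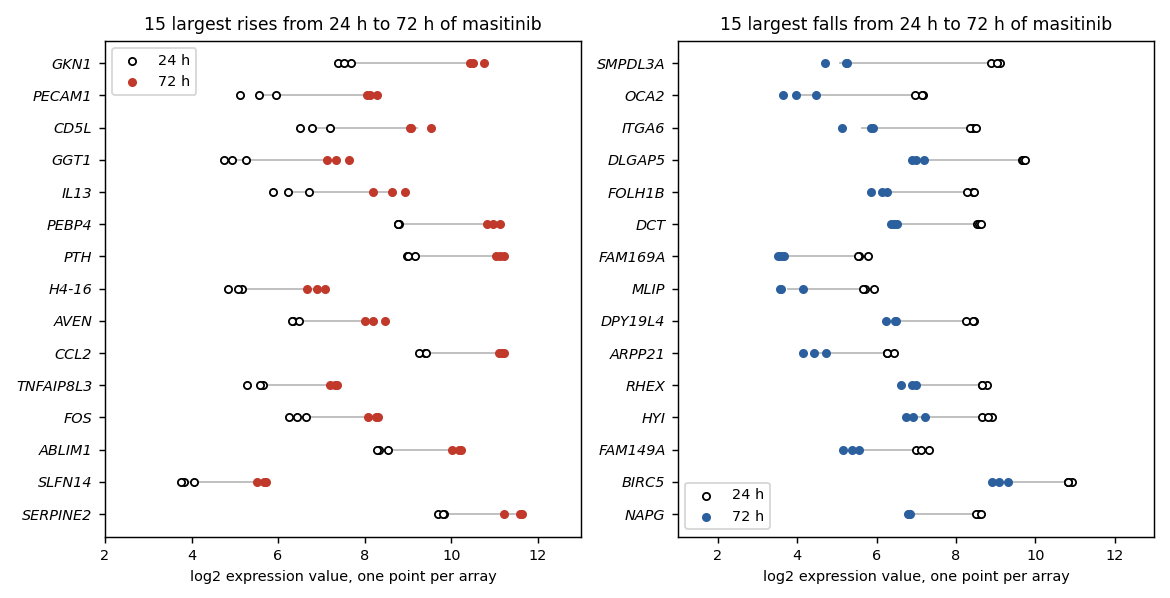
Log2 expression value on each array (horizontal axis) for the 15 genes with the largest called rises and the 15 with the largest called falls from 24 h (open points, 3 arrays) to 72 h (filled points, 3 arrays), with grey lines joining the means. In all 30 genes the arrays of 24 h and 72 h do not overlap, which the choice of these genes required, and SMPDL3A spans the widest gap.

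The largest fall was that of SMPDL3A, a secreted phosphodiesterase related to acid sphingomyelinase. Its arrays read 9.11, 8.88 and 9.04 at 24 h and 5.24, 4.71 and 5.25 at 72 h, a change of -3.95 (SE 0.129, adjusted p = 6.07e-09, 15.4-fold lower), and both of its probe sets were called. SMPDL3A had been called higher at 12 h than at 0 h by 1.20, and its 72 h mean of 5.07 was below the 0 h mean of 7.93. OCA2 and DCT are genes of pigment cells, a lineage that also depends on KIT. OCA2, a transport protein of the melanosome, fell by 3.06 (SE 0.152, adjusted p = 9.52e-08), from 7.17, 6.97 and 7.14 to 4.46, 3.65 and 3.97, on 1 of 2 probe sets, the other changing by -0.34. DCT, an enzyme of melanin synthesis, fell by 2.15 (SE 0.096, adjusted p = 4.98e-08), from 8.53, 8.58 and 8.63 to 6.43, 6.50 and 6.36, and its 72 h mean of 6.43 lay beside its 0 h mean of 6.45.

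ITGA6, the alpha 6 chain of laminin-binding integrins, read 8.42, 8.35 and 8.50 at 24 h and 5.91, 5.12 and 5.86 at 72 h, a change of -2.80 (SE 0.159, adjusted p = 2.6e-07). This was 1 of 4 probe sets of ITGA6, and the others were not called and reached a change of 0.22. A similar disagreement was present in NAPG, a protein that helps SNARE complexes come apart, which fell by 1.75 (SE 0.0609) on 1 of 3 probe sets while the others reached 0.13. FOLH1B, a relative of folate hydrolase, fell by 2.29 (SE 0.0941) on 3 of 4 probe sets. FAM149A, whose role is little known, fell by 1.77 (SE 0.126) on both. DPY19L4, of a family of protein mannosyltransferases, has 1 probe set, which fell by 1.99 (SE 0.0962). RHEX, a regulator of erythropoietin receptor signalling in red cell precursors, fell by 1.85 (SE 0.1) from 8.65, 8.78 and 8.66 to 6.90, 6.63 and 7.00.

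DLGAP5 and BIRC5, also among the 15 largest falls, are described with the mitotic genes. The remaining ones were those of MLIP, a lamin-interacting protein of muscle, by 2.00 (SE 0.137), of ARPP21, a phosphoprotein regulated by cyclic AMP, by 1.89 (SE 0.118), of HYI, a hydroxypyruvate isomerase, by 1.83 (SE 0.13), and of FAM169A by 2.03 (SE 0.128). MLIP and ARPP21 had each been called higher at 12 h than at 0 h, by 1.32 and 1.48. In 365 of the 571 called genes more than 1 probe set was present, and in 176 of these another probe set was called the same way, in 1 the opposite way and in 188 no other one was called. For EGR1, KLF6, TRIB2, SPC24, CCNB2, FEN1, RRM1, PLK3, BIRC3 and SUCLA2, described below, no other probe set was called. The same holds for PSPH, BHLHE40, PLCG1, PSMB10, ERAP2, PARP14, CORO1A, NFIL3, CLOCK and CD3D.

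Of 16 measured transcripts in the list of kinases that masitinib inhibits, 1 was called over these 2 days. KIT itself measured 13.16, 13.66 and 13.43 at 24 h and 13.35, 13.42 and 12.24 at 72 h (change -0.41, SE 0.285, adjusted p = 0.397). The 95% interval of this change ran from -1.033 to 0.2053, so it leaves room for a 2-fold fall. The third array of 72 h was the low one, the other ones lay within the range of the 24 h arrays, and the groups overlapped. PDGFRA, a growth factor receptor at a low level, showed the same array as the low one, with 5.95, 6.11 and 6.04 against 5.92, 5.98 and 5.28 (change -0.31, adjusted p = 0.258). PDGFRB changed by -0.01 (SE 0.121). The SRC family kinases LYN and FYN were lower on every 72 h array than on any of 24 h, with changes of -0.24 (SE 0.0731, adjusted p = 0.0349) and -0.31 (SE 0.0882, adjusted p = 0.0267), and neither was called. LCK, a SRC family kinase best known from T cells, was the 1 member of 16 measured kinase targets that fell, by 0.82 (SE 0.0713, adjusted p = 6.45e-06), from 7.78, 7.66 and 7.60 to 6.88, 6.88 and 6.82, on 1 of 2 probe sets, and 0 of 16 rose.

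Several genes that ERK signalling switches on rose from 24 h to 72 h. FOS, a subunit of the AP-1 transcription factor, read 6.43, 6.26 and 6.65 at 24 h and 8.30, 8.25 and 8.08 at 72 h, a change of 1.76 (SE 0.108, adjusted p = 4.26e-07), with a second probe set at 0.22. Its 12 h mean had been 5.42 and its 0 h mean 7.90, and it was called at 12 h, where it fell by 2.49. From 12 h to 24 h it had already risen by 1.03, which was called. JUN, the partner of FOS, rose by 1.66 (SE 0.126, adjusted p = 2.32e-06), from 6.25, 6.28 and 6.29 to 7.99, 8.02 and 7.80, and it had not been called at 12 h (0.26). EGR1, a zinc finger factor, rose by 1.01 (SE 0.16, adjusted p = 0.000665), from 6.13, 5.92 and 5.99 to 7.24, 6.87 and 6.96, still below its 0 h mean of 8.56. MYC, which drives growth and ribosome production, rose by 0.61 (SE 0.0672), from 9.80, 9.55 and 9.66 to 10.32, 10.24 and 10.29. KLF6 (0.61, SE 0.0776), a Kruppel-like factor, was the fifth of 5 rises among 20 measured immediate early genes, with 0 falls and a list median of 0.13 against -0.0012 for all genes. KLF6 had also been called higher at 12 h than at 0 h, by 0.60. The calls of MYC and KLF6 ended without the second array of 24 h and of 72 h, respectively, where the change went under 1.5-fold, and that of EGR1 ended without any of the 6 arrays of 24 h and 72 h, the first or the third of 0 h or the second of 12 h (adjusted p = 0.00111 to 0.00429).

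Of 17 measured genes of ERK feedback 3 rose (17.6%) and 0 fell, against 1.96% and 1.81% of all genes. DUSP1, a phosphatase that inactivates MAP kinases, rose by 1.04 (SE 0.0703, adjusted p = 8.88e-07), from 8.62, 8.41 and 8.54 to 9.59, 9.48 and 9.62. IER3, which prolongs ERK activity and is also a target of NF-kappa-B, rose by 1.00 (SE 0.0722), from 8.03, 7.97 and 8.06 to 9.11, 8.90 and 9.06. Both had been called lower at 12 h than at 0 h, with changes of -1.03 and -1.18, and their 72 h means of 9.56 and 9.02 were above the 0 h means of 9.32 and 8.58. PHLDA1, a pleckstrin-homology domain protein induced by growth factors, rose by 0.76 (SE 0.104), and its call ended without the second or the third array of 24 h or the first or the third of 72 h (adjusted p up to 0.00149). The lowest change of the list was -0.20 and its median 0.07.

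The FOXO and quiescence genes, of which 15 of 24 had been called higher at 12 h than at 0 h (4.26% of all genes were), gave 1 rise and 1 fall. TRIB2, a pseudokinase, rose by 0.85 (SE 0.0652), from 9.93, 9.71 and 9.88 to 10.71, 10.68 and 10.69. It was the 1 member called lower at 12 h than at 0 h, with a change of -1.269. Its 72 h mean of 10.692 was still under its 0 h mean of 11.225. SESN3, a stress-induced regulator of growth signalling, fell by 1.06 (SE 0.157, adjusted p = 0.000397), from 5.90, 5.67 and 5.84 to 4.71, 4.71 and 4.79. All 6 arrays of SESN3 at 24 h and 72 h kept apart, yet its call ended without any 1 of them (adjusted p = 0.00125 to 0.00255). The list median was -0.07. Of 29 genes of JAK and STAT signalling, which KIT also uses, STAT4 fell by 0.90 (SE 0.0575) and STAT5B by 0.88 (SE 0.105), each on both of its probe sets, and 0 rose. STAT5B, a factor downstream of KIT and of cytokine receptors, read 7.89, 7.72 and 7.71 at 24 h and 6.60, 7.05 and 7.02 at 72 h.

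**Figure D2:**
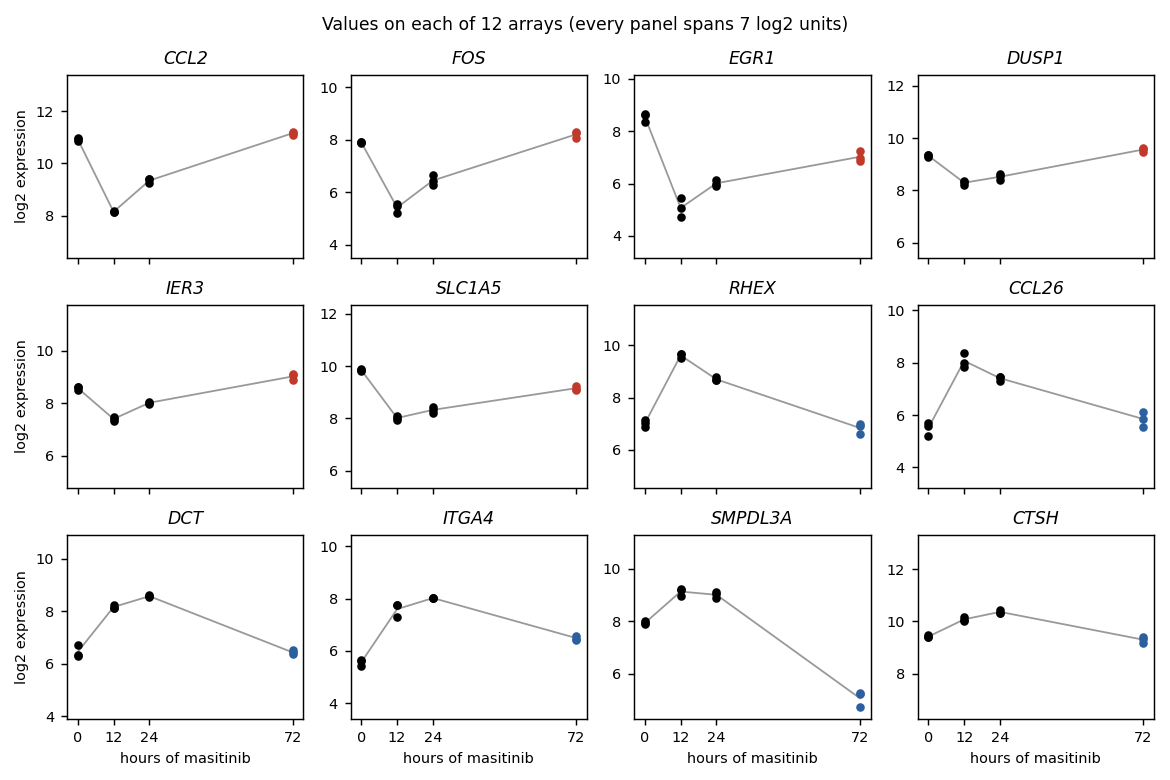
Log2 expression (vertical axis, every panel spans 7 units) of 12 genes on each of the 3 arrays at 0, 12, 24 and 72 h of masitinib, with the line through the means and the 72 h arrays coloured red for a called rise and blue for a called fall from 24 h. CCL2, FOS, EGR1, DUSP1, IER3 and SLC1A5 were low at 12 h and rose after 24 h, and RHEX, CCL26, DCT, ITGA4, SMPDL3A and CTSH were high at 12 h and 24 h and fell, SMPDL3A to a mean of 5.07 under that of 7.93 at 0 h. CCL2, FOS and IER3 had already been called higher at 24 h than at 12 h. The panels show genes picked for such courses, and 296 of 492 late rises and 398 of 516 late falls had no call at 12 h.

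The chemokines split in the same manner. CCL2, which attracts monocytes, read 9.39, 9.24 and 9.41 at 24 h and 11.09, 11.21 and 11.18 at 72 h, a rise of 1.81 (SE 0.0639, adjusted p = 6.76e-09). Its mean had gone from 10.93 at 0 h to 8.15 at 12 h, and at 72 h it was 11.16. CCL26, which attracts eosinophils, fell by 1.56 (SE 0.163, adjusted p = 2.77e-05), from 7.46, 7.32 and 7.44 to 5.87, 5.55 and 6.13, after it had been called higher at 12 h by 2.56. These were the 2 called genes of 28 measured chemokines and receptors.

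Whether late changes ran against early ones can be asked of the step from 0 h to 12 h, which shares no array with the comparison of 72 h and 24 h. Of the 492 late rises 133 (27%) had been called lower at 12 h than at 0 h, where 5.89% of all named probe sets were, and 63 (12.8%) had been called higher, where 3.77% were. Of the 516 late falls 98 (19%) had been called higher at 12 h and 20 (3.88%) lower. The 133 are 7.72% of all early falls and the 98 are 8.88% of all early rises, so most early calls of either direction were not followed by a late call. The median change from 0 h to 12 h was -0.03 for the late rises, 0.19 for the late falls and 0.01 over all named probe sets, and 296 late rises and 398 late falls had no call at 12 h. Late rises and falls were also brighter, with median 24 h levels of 7.73 and 8.04 against 6.21 over all named probe sets. Both steps used the same estimate of the spread of each probe set, and the shares were not matched for level or spread.

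**Figure D3:**
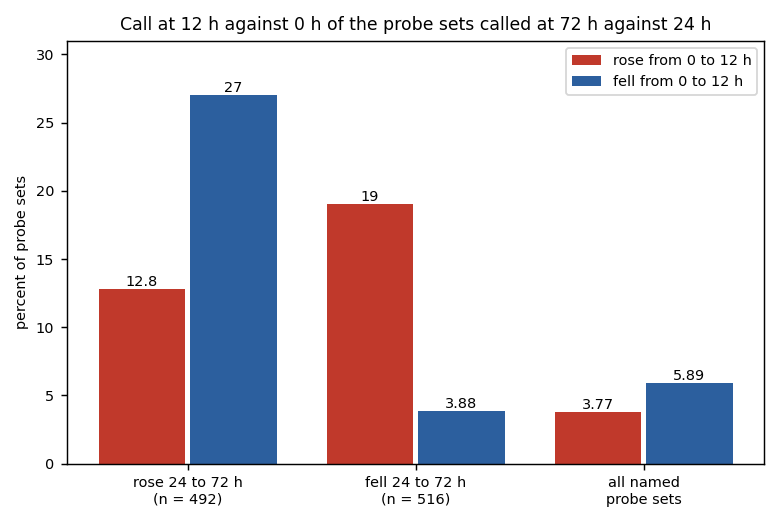
Percent of named probe sets (vertical axis) that were called higher (red) or lower (blue) at 12 h than at 0 h, for the 492 probe sets that rose from 24 h to 72 h, the 516 that fell and all 29254 named probe sets. Early falls make up 27% of the late rises against 5.89% of all, and early rises 19% of the late falls against 3.77% of all. The probe sets compared were not matched for level or spread.

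The change from 24 h to 72 h minus that from 12 h to 24 h was also tested as 1 contrast. The intervals span 48 h and 12 h and the changes are totals, not rates. By this test 631 named probe sets (2.16%) had a higher later change and 311 (1.06%) a lower one. By gene these were 405 (2.68%) and 193 (1.28%). Of 59 measured mitotic genes 41 had the higher later change, and of 49 replication genes 30, and the median change from 12 h to 24 h of both lists was below 0 (-2.34 for the mitotic one). A higher later change is therefore no rise: ASPM, CCNB2, CDC20 and SPC24 are among the 41 and fell after 24 h as well, by less. The contrast used the 24 h arrays with double weight, and without 1 of them its total of 942 (3.22%) came down to 611, 517 or 507.

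Of 59 mitotic genes 6 fell from 24 h to 72 h and 1 rose, the list median was -0.16, and 23 members were lower on every 72 h array than on any of 24 h while 8 were higher (18.2% and 16.9% of all genes). DLGAP5, a protein that bundles spindle microtubules, had the largest fall. Its brightest probe set read 10.13, 10.06 and 10.03 at 24 h and 7.74, 7.54 and 7.98 at 72 h (change -2.32, SE 0.0948, adjusted p = 2.12e-08), another fell by 2.67 (SE 0.0815) and the third changed by -0.01. BIRC5, survivin, which serves in chromosome segregation and blocks cell death, fell by 1.75 (SE 0.087, adjusted p = 9.52e-08), from 10.93, 10.81 and 10.81 to 9.09, 8.91 and 9.31. The 24 h means of DLGAP5 and BIRC5, 10.08 and 10.85, were already under the means of 11.18 and 11.83 at 0 h. Both genes had been called lower at 24 h than at 12 h, with changes of -1.482 and -1.185.

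Other mitotic genes were already far down at 24 h. ASPM, a spindle pole protein, fell by a further 0.82 (SE 0.0802), from 7.13, 6.82 and 6.93 to 6.16, 6.07 and 6.20, after a 12 h mean of 10.34. CCNB2, a mitotic cyclin, fell by 0.76 (SE 0.111), CDC20, which activates the anaphase-promoting complex, by 0.71 (SE 0.0891), and SPC24, a kinetochore protein, by 0.61 (SE 0.103). The call of SPC24 (adjusted p = 0.000996) held in 1 of the 12 fits that left out 1 array, the one without the third of 72 h, and that of CCNB2 ended without the first or the third array of 24 h or the first of 72 h. MELK, a kinase of dividing cells, went the other way, from 7.03, 6.86 and 7.03 to 8.08, 8.01 and 8.15 (change 1.11, SE 0.068, adjusted p = 4.26e-07), with 12 h and 0 h means of 10.10 and 11.05 and another probe set at -0.07. The fit with 6 arrays called 2 mitotic falls. Across fits without 1 array 4 to 7 mitotic genes fell, 4 of them without the first or the third array of 24 h or the first of 72 h, and with poly-A scaling 3 did, at a list median of -0.03 against 0.13 for all genes and with 13.6% of members lower on every 72 h array and 16.9% higher, where 4.1% and 22.1% of all genes were.

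Genes of DNA replication moved up in part. Of 49 measured ones 7 rose and 2 fell, the list median was 0.26, and 29 were higher on every 72 h array than on any of 24 h while 6 were lower (16.9% and 18.2% of all genes). RPA2, a subunit of the protein that coats single-stranded DNA, rose by 0.87 (SE 0.0574, adjusted p = 7.21e-07), from 7.94, 7.89 and 7.98 to 8.82, 8.75 and 8.86. FEN1, which trims Okazaki fragments, rose by 0.84 (SE 0.112), and RFC4, of the clamp loader, by 0.70 (SE 0.0642). Ribonucleotide reductase, which makes deoxynucleotides, rose in both subunits, RRM2 by 0.64 (SE 0.0817) and RRM1 by 0.60 (SE 0.0527). POLE2, of DNA polymerase epsilon, and DBF4, which activates the kinase of origin firing, each rose by 0.59 (SE 0.0542 and 0.0801). All these levels remained under those before treatment, as in RRM2, whose means were 12.55, 11.68, 8.65 and 9.29 at 0, 12, 24 and 72 h. CDT1, which loads the MCM helicase at origins, fell by 1.16 (SE 0.0733, adjusted p = 5.31e-07), from 11.03, 10.84 and 10.87 to 9.71, 9.65 and 9.90, and POLA1, of the primase complex, by 0.90 (SE 0.0965) on 1 of 2 probe sets. Left out 1 at a time, the second array of 24 h ended the calls of RRM2 and POLE2, the third of 24 h those of FEN1 and POLE2, the first of 24 h that of DBF4, the first of 72 h those of FEN1 and DBF4, and the third of 72 h those of RRM1 and POLE2. In such fits 5 to 9 rises were called, the fit with 6 arrays called 4 and poly-A scaling 13.

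Among 20 genes of the G1 phase E2F5, a transcription factor of that phase, rose by 0.90 (SE 0.101), from 6.68, 6.45 and 6.54 to 7.44, 7.37 and 7.55, and 0 fell. Of 22 inhibitors of cyclin-dependent kinases and p53 targets, CDKN1A, the inhibitor p21, rose by 0.92 (SE 0.101, adjusted p = 3.71e-05), from 8.29, 8.24 and 8.27 to 9.08, 9.26 and 9.24, on 1 of 3 probe sets. PLK3, a stress-responsive kinase, rose by 0.70 (SE 0.104), a call that ended without the second or the third array of 24 h or the first or the third of 72 h (adjusted p up to 0.00288). Of 10 measured histone genes in the list 0 were called, and H3-3B and H3-3A, the brightest, changed by -0.05 and -0.03. Of 34 genes of the BCL2 family and death receptors, TNFSF10, the death ligand TRAIL, rose by 1.08 (SE 0.0653, adjusted p = 4.03e-07), from 10.87, 10.71 and 10.93 to 11.96, 11.85 and 11.93. BIRC3, an inhibitor of apoptosis and NF-kappa-B target, fell by 0.61 (SE 0.0999, adjusted p = 0.000846), and among fits without 1 array this call held in the one without the first of 72 h.

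**Figure D4:**
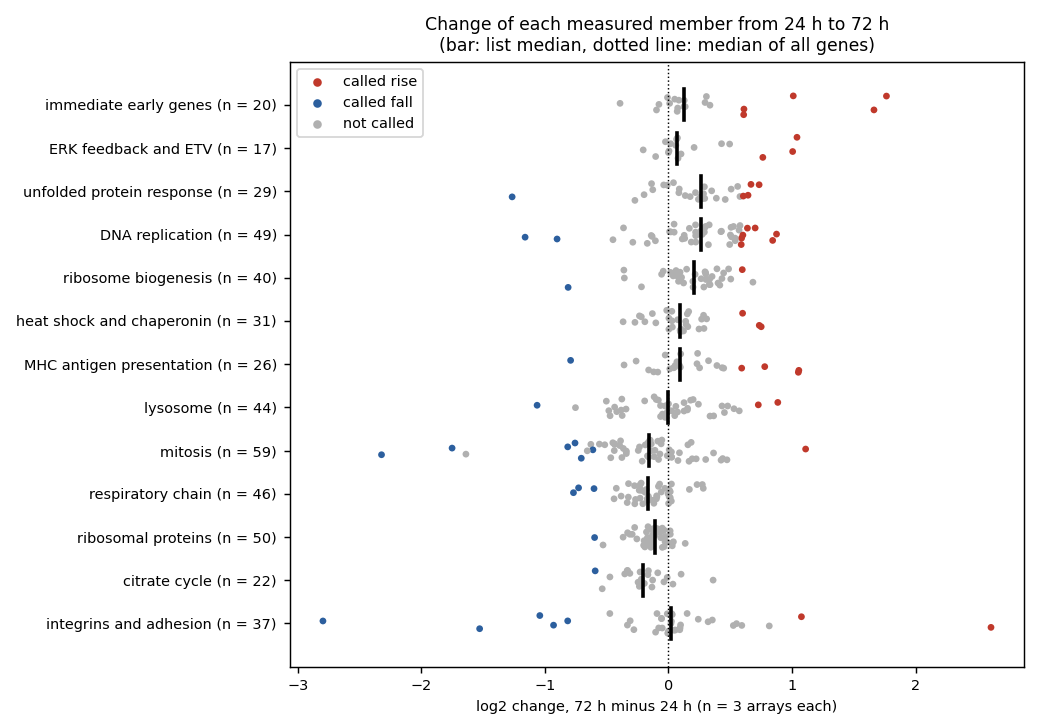
Log2 change from 24 h to 72 h (horizontal axis, n = 3 arrays each) of every measured member of 13 gene lists, coloured by call, with a bar at the list median and a dotted line at the median of all genes (-0.0012). Replication, ribosome biogenesis and unfolded protein response genes lie mostly to the right of the line, and ribosomal protein, respiratory chain and citrate cycle genes mostly to the left, although with poly-A scaling the ribosomal protein median was 0.02, against 0.13 for all genes.

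Ribosome biogenesis genes, of which 31 of 40 had been called lower at 12 h than at 0 h (6.3% of all genes were), gave 1 rise and 1 fall, shares near those of all genes. Of the 40 members 34 had a change above 0, the median was 0.21, and 23 were higher on every 72 h array than on any of 24 h while 4 were lower (16.9% and 18.2% of all genes). NHP2, of the particle that modifies ribosomal RNA, rose by 0.60 (SE 0.0567), from 10.48, 10.37 and 10.38 to 10.95, 11.03 and 11.05, and its change went under 1.5-fold without the second or the third array of 24 h or the third of 72 h. NPM1, nucleophosmin, a chaperone of the nucleolus, fell by 0.81 (SE 0.0648, adjusted p = 3.26e-06), from 11.24, 11.16 and 11.16 to 10.33, 10.29 and 10.50. The ribosomal proteins themselves had a median of -0.11. Of 50 measured ones 40 were lower on every 72 h array and 0 higher (18.2% and 16.9% of all genes), with loess scaling 50% and 14% (17.4% and 18.8% of all genes), and with poly-A scaling 4% and 2% (4.1% and 22.1% of all genes), where their median was 0.02 against 0.13 for all genes. RPS4X fell by 0.60 (SE 0.0652), from 11.09, 11.01 and 11.05 to 10.55, 10.33 and 10.47, and was not called without the first array of 24 h or the second of 72 h. Of 46 mitochondrial ribosomal proteins 0 were called, and the 2 brightest, MRPL20 and MRPS18B, changed by 0.17 and -0.24.

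Of 29 measured genes of the unfolded protein response, which serves the endoplasmic reticulum, 4 rose and 1 fell, with a list median of 0.26, and 16 were higher on every 72 h array while 4 were lower (16.9% and 18.2% of all genes). MANF, a secreted stress-induced protein, read 11.58, 11.45 and 11.45 at 24 h and 12.17, 12.22 and 12.29 at 72 h (change 0.73, SE 0.0653, adjusted p = 7.64e-06). SDF2L1, of a chaperone complex with BiP, rose by 0.67 (SE 0.0522), HERPUD1, which serves in degradation from the reticulum, by 0.64 (SE 0.0524), and HSP90B1, the chaperone GRP94, by 0.61 (SE 0.0523), each with all of its probe sets called. At 72 h the means of MANF, SDF2L1 and HSP90B1 (12.23, 11.85 and 12.85) were still under those at 0 h (12.69, 12.01 and 13.25). The 72 h mean of HERPUD1, 12.37, was above its 0 h mean of 10.90. EDEM1, a lectin that hands misfolded glycoproteins to degradation, fell by 1.26 (SE 0.069, adjusted p = 1.93e-07), from 10.10, 9.86 and 10.03 to 8.79, 8.69 and 8.71. Of 31 cytosolic chaperones 3 rose and 0 fell, namely HSPH1 by 0.75 (SE 0.0631), FKBP4 by 0.73 (SE 0.0784) and HSPA8, the constitutive HSC70, by 0.60 (SE 0.0537). Each of these had been called lower at 12 h than at 0 h, and HSPA8 went under 1.5-fold without the second array of 24 h or the third of 72 h. The 72 h means of HSPH1, FKBP4 and HSPA8 (12.14, 10.62 and 13.56) were under their 0 h means (12.61, 11.53 and 14.07). Of 31 proteasome genes 0 were called, and PSMB2 and PSMA7 changed by 0.06 and 0.01.

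Mitochondrial energy genes lay on the lower side. Of 46 measured genes of the respiratory chain 3 fell and 0 rose, the median was -0.17, and 31 were lower on every 72 h array while 5 were higher (18.2% and 16.9% of all genes). With poly-A scaling 8.7% were lower and 10.9% higher, against 4.1% and 22.1% of all genes, at a median of -0.03 against 0.13, and 1 fall was called. NDUFA10, NDUFS1 and NDUFS8 are subunits of complex I, which takes electrons from NADH. NDUFA10 went from a mean of 10.98 at 24 h to 10.17, 10.15 and 10.32 at 72 h (change -0.77, SE 0.0676, adjusted p = 6.95e-06), NDUFS1 fell by 0.73 (SE 0.07) on 3 of 4 probe sets, and NDUFS8 fell by 0.60 (SE 0.0599), a call lost without the first array of 72 h. In the citrate cycle 13 of 22 genes were lower on every 72 h array and 1 was higher (18.2% and 16.9% of all genes), with a median of -0.21. With poly-A scaling 3 (13.6%) were lower and 1 (4.55%) higher, against 4.1% and 22.1% of all genes, at a median of -0.08 against 0.13. SUCLA2, of succinyl-CoA synthetase, fell by 0.59 (SE 0.0633), from 11.19, 11.13 and 11.16 to 10.56, 10.56 and 10.57, and was not called without the first array of 24 h or with loess or poly-A scaling. Of 22 glycolysis genes 0 were called, and LDHA and ENO1, which are bright on this array, changed by 0.17 and 0.08.

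Of 26 genes of cholesterol synthesis 0 were called, with SQLE at -0.17 and FDPS at -0.09. In the serine, folate and ATF4 list 1 of 32 rose, PSPH, the last enzyme of serine synthesis, by 0.64 (SE 0.0561). Among 27 transporters of amino acids and nucleosides SLC1A5, which imports glutamine, rose by 0.83 (SE 0.0712, adjusted p = 5.88e-06), from 8.44, 8.23 and 8.32 to 9.11, 9.14 and 9.23, and was still below its 0 h mean of 9.85. SLC16A10, which carries aromatic amino acids, fell by 0.90 (SE 0.113). BHLHE40, a repressor induced by hypoxia that also acts in the circadian clock, fell by 0.92 (SE 0.0669), from 10.98, 10.86 and 10.83 to 9.96, 9.89 and 10.05, the 1 called of 23 hypoxia targets. GSTA4, a glutathione transferase, was the 1 of 30 oxidative stress genes called, with a rise of 0.62 (SE 0.0536) on both probe sets. Haem and erythroid genes gave 3 rises and 1 fall of 18. EPB42, a protein of the red cell membrane skeleton, rose by 1.39 (SE 0.124), from a mean of 6.25 to 7.42, 7.88 and 7.63, UROS and ALAS2, enzymes of haem synthesis, by 0.80 (SE 0.108) and 0.65 (SE 0.086), and NFE2, an erythroid transcription factor, fell by 0.67 (SE 0.0813). The call of UROS ended without the first or the third array of 24 h or the second or the third of 72 h, and that of ALAS2 without the second or the third of 24 h or the first of 72 h.

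**Figure D5:**
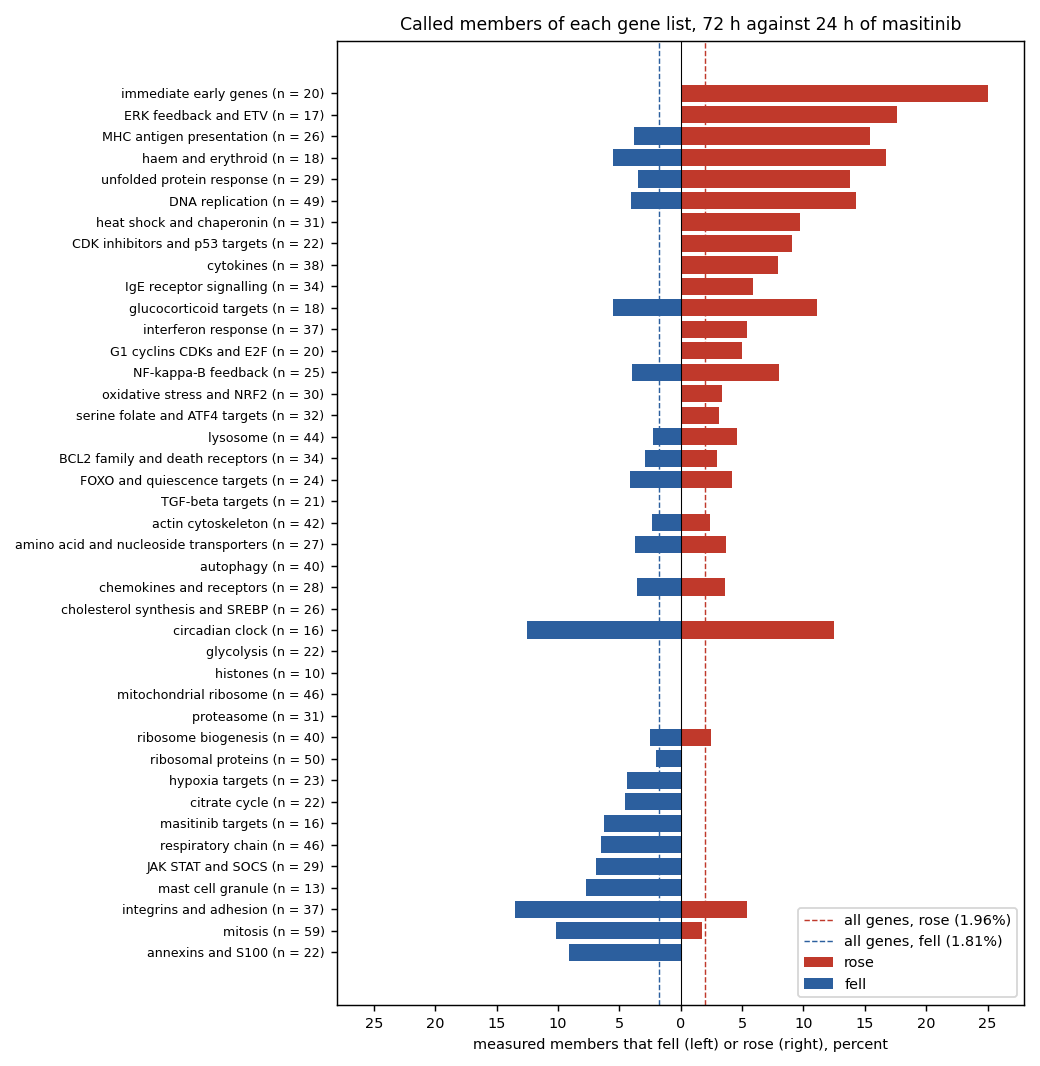
Percent of measured members of 41 gene lists (n beside each name) that rose (red, to the right) or fell (blue, to the left) from 24 h to 72 h by the call rule, with dashed lines at the 1.96% and 1.81% of all genes. Immediate early genes have the longest red bar (5 of 20) and integrins and adhesion genes the longest blue one (5 of 37), and in 7 lists no member was called.

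Mast cell genes were called in both directions. Of the granule genes 0% rose and 7.69% fell, and of the IgE receptor pathway genes 5.88% rose and 0% fell. Over all genes these shares were 1.96% and 1.81%. Of 13 measured granule genes 6 were higher and 5 lower on every 72 h array than on any of 24 h, and of 34 genes of the IgE receptor pathway and lipid mediators 11 and 12, by changes that mostly stayed under 1.5-fold. These are 46.2% and 38.5% of the granule genes and 32.4% and 35.3% of the IgE list, against 16.9% and 18.2% of all genes. Of the granule genes 1 fell, CTSG, the protease cathepsin G, by 0.87 (SE 0.0907), from 6.51, 6.41 and 6.60 to 5.76, 5.47 and 5.66. Of the IgE pathway genes 2 rose and 0 fell. LTC4S, the enzyme that makes leukotriene C4, read 12.86, 12.90 and 12.89 at 24 h and 13.94, 13.95 and 14.02 at 72 h (change 1.08, SE 0.062, adjusted p = 2.68e-07), on top of a 0 h mean of 10.19. PLCG1, a phospholipase of receptor signalling, rose by 0.68 (SE 0.0934), which did not pass without the second or the third array of 24 h or any array of 72 h (adjusted p up to 0.00163). Of 38 cytokines 3 rose (7.89%) and 0 fell, IL13 and TNFSF10 with the values above and IL6 by 0.86 (SE 0.0946), from 7.75, 7.51 and 7.57 to 8.60, 8.28 and 8.54. NFKBIA, the inhibitor of NF-kappa-B that its own target factor induces, rose by 0.63 (SE 0.0612), from 11.27, 11.18 and 11.24 to 11.83, 11.90 and 11.84, so that with IER3 and BIRC3 the NF-kappa-B list gave 2 rises and 1 fall of 25.

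Antigen presentation genes gave 4 rises and 1 fall of 26 (15.4% and 3.85%, against 1.96% and 1.81% of all genes). PSMB9, a subunit of the immunoproteasome, rose by 1.05 (SE 0.0689, adjusted p = 7.13e-07), from 10.85, 10.70 and 10.74 to 11.69, 11.85 and 11.90, and PSMB10, another, by 0.59 (SE 0.0836). The class I genes DLA-64 and DLA88 rose by 1.05 (SE 0.0838) and 0.78 (SE 0.105). Class I genes resemble one another in sequence, so a probe set of one may also read another. ERAP2, which trims peptides, fell by 0.79 (SE 0.0625), from 8.96, 8.96 and 8.97 to 8.19, 8.15 and 8.18. The calls of DLA88 and PSMB10 both ended without the second or the third array of 24 h or the first or the third of 72 h, and that of DLA88 also without the first of 24 h. Of 37 interferon response genes OAS2, a sensor of double-stranded RNA, rose by 1.33 (SE 0.118, adjusted p = 7.78e-06), from 6.05, 5.67 and 6.05 to 7.31, 7.05 and 7.40, PARP14 rose by 0.71 (SE 0.0978), and 0 fell. The 2 rises were 5.41% of the interferon list, against 1.96% of all genes. PARP14 was not called without the second or the third array of 24 h or the first or the third of 72 h (adjusted p up to 0.00179).

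Adhesion receptors moved in both directions, with 2 rises and 5 falls among 37 (5.41% and 13.5%, against 1.96% and 1.81% of all genes). Beside PECAM1, CD44, the hyaluronan receptor, rose by 1.08 (SE 0.11) on 1 of 3 probe sets, from 6.15, 5.81 and 6.12 to 7.24, 6.85 and 7.21. ITGA4, the alpha 4 integrin chain, fell by 1.53 (SE 0.107, adjusted p = 1.22e-06), from 8.01, 8.02 and 8.03 to 6.47, 6.58 and 6.41, after a rise of 2.03 from 0 h to 12 h. The tetraspanin CD81 fell by 1.04 (SE 0.0992), ITGB3, the beta chain of the vitronectin receptor, by 0.82 (SE 0.073), and its partner ITGAV by 0.93 (SE 0.131). ITGAV read 11.94, 12.16 and 12.05 at 24 h and 11.30, 11.30 and 10.76 at 72 h, with the third array of 72 h lowest, 1 of its 5 probe sets called and others up to 0.30, and it was not called without the second or the third array of 24 h.

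In the lysosome 2 of 44 genes rose (4.55%) and 1 fell (2.27%), against 1.96% and 1.81% of all genes, and all 3 were cathepsins. CTSK and CTSS rose by 0.88 (SE 0.0736) and 0.73 (SE 0.0692), continuing above 0 h means of 7.84 and 9.71 to 9.90 and 12.33 at 72 h. CTSH fell by 1.06 (SE 0.0716, adjusted p = 8.69e-07), from 10.43, 10.33 and 10.34 to 9.17, 9.42 and 9.31, back to the side of its 0 h mean of 9.42. Of 40 autophagy genes 0 were called, with GABARAP at -0.16 and ATG3 at 0.07. Of 42 actin genes PLEK, pleckstrin, rose by 0.76 (SE 0.0812) and CORO1A, coronin of blood cells, fell by 0.80 (SE 0.0699), from 12.51, 12.38 and 12.40 to 11.48, 11.67 and 11.73. The calcium-binding proteins ANXA2 and S100A4 fell by 0.85 (SE 0.0611) and 0.72 (SE 0.0595), the 2 called of 22.

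Of 16 clock genes 2 rose and 2 fell (12.5% each, against 1.96% and 1.81% of all genes). NFIL3, a repressor, rose by 1.15 (SE 0.101), from 7.25, 6.88 and 7.21 to 8.28, 8.08 and 8.42, and the repressor CRY1 by 0.76 (SE 0.0688), while CLOCK, the activator, fell by 0.93 (SE 0.0946) beside BHLHE40. Both NFIL3 and CRY1 had been called lower at 12 h, and their 72 h means of 8.26 and 9.89 lay beside the 0 h means of 8.24 and 9.88. Of 18 glucocorticoid targets DUSP1 and NFKBIA rose, as above, and MAOA, which breaks down amines, fell by 0.84 (SE 0.0725). Of 21 TGF-beta targets 0 were called by their brightest probe set, with TSC22D1 at 0.14 and TGFBR2 at -0.12.

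The marker lists bore on what cells the flasks held. The 17 mast cell markers had a median level of 12.86 to 12.90 on the 24 h arrays and 12.46 to 13.28 on those of 72 h. LTC4S rose among them and ENPP3, an ectoenzyme of basophils and mast cells, fell by 0.63 (SE 0.054), from 12.72, 12.71 and 12.73 to 12.08, 12.10 and 12.07, and the other 15 were not called. The IgE receptor chains FCER1A and MS4A2 and the proteases CPA3 and CMA1, at 14.25 and above at 24 h near the top of the scale, changed by 0.24, 0.04, 0.04 and 0.07. On every 72 h array 7 of the 17 markers were higher than on any of 24 h, and 5 were lower. These are 41.2% and 29.4%, against 16.9% and 18.2% of all genes. The higher ones were LTC4S, FCER1A, MS4A2, CPA3, CMA1, SRGN (0.20) and the transcription factor GATA2 (0.58). The lower ones were ENPP3, SLC18A2, which loads amines into vesicles (-0.51), FCER1G (-0.36), IL1RL1 (-0.35) and the histamine-making enzyme HDC (-0.17). The 16 macrophage markers had medians of 5.36 to 5.52 at 24 h and 5.34 to 5.62 at 72 h. CD5L and FCGR1A, an IgG receptor (0.59, SE 0.0767, under 1.5-fold without the second array of 24 h or of 72 h), rose among them, whereas CD14, CD163 and CSF1R measured 6.44, 4.35 and 5.38 at 72 h and changed by -0.10, 0.06 and -0.08.

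The 12 endothelial markers had medians of 5.96 to 6.20 and 6.35 to 6.58. PECAM1 rose, as did KDR, a receptor for VEGF, by 0.87 (SE 0.0711), from 10.99, 10.85 and 10.89 to 11.83, 11.67 and 11.84, while CDH5, TEK and VWF were at 7.28, 4.52 and 5.76 at 72 h and were not called. Of 9 epithelial markers GKN1 rose, and EPCAM and KRT18 fell by 1.45 (SE 0.0749) and 1.56 (SE 0.0904), from 8.65, 8.64 and 8.57 to 7.23, 7.11 and 7.18 and from 7.44, 7.20 and 7.42 to 5.72, 5.76 and 5.91, with medians of 6.15 to 6.22 and 5.72 to 5.91 over the list. Of 12 T and NK cell markers CD3D fell by 1.10 (SE 0.142) beside LCK, with medians of 5.29 to 5.55 and 5.24 to 5.36. GP9, a platelet glycoprotein, rose by 0.59 (SE 0.083) as the 1 called of 9 megakaryocyte markers, which did not pass without the second or the third array of 24 h or any array of 72 h, and EPB42 and ALAS2 were the 2 called of 5 erythroid ones. Of 9 B cell, 9 neutrophil and 12 fibroblast markers 0 were called. What part other cells had in these changes was not tested.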

How the data were processed

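The deposited values are log2 expression values of 43035 probe sets on 12 arrays. Per the labels and the study's methods the authors made them in Partek by correcting background, quantile normalizing and summarising probes by median polish (the methods call this gcRMA, while the submitters' notes name RMA, so the background correction, which bears on dim values and fold sizes, is not settled), which sets the arrays to a common distribution. They were used as deposited, with no further normalization. Probe sets were named from GEO's platform annotation and updated through Entrez numbers (27680 matched, 0 symbols changed), which left 29254 with 1 symbol, 439 with several and 13231 with none.

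A model with 4 groups was fitted to all 12 arrays with limma 3.58.1 (R 4.3.3, lmFit and eBayes, two-sided, Benjamini-Hochberg adjustment over 42924 probe sets), and the contrast of 72 h with 24 h was called at adjusted p under 0.001 and over 1.5-fold. SE is the fit's standard error, and n is 3 arrays a group. The fit was tested on simulated data. Groups and replicate numbers came from the titles. Genes were named as follows: KIT, PDGFRA, PDGFRB, LYN and FYN, then the 15 largest called rises and falls with arrays that did not overlap (uncharacterised symbols left out), then up to 4 called members of each list in each direction or its 2 brightest where none was called, then called cell type markers. KLF6, CDC20, SPC24, DBF4, POLE2, RRM1 and ITGB3 were added as called list members after their values were seen. The members and lists were chosen with earlier results of these data known, so no list was tested. Alternatives covered the test, thresholds, scaling, a filter on dim probe sets, the probe set per gene and leaving out each array. Tables and figures were made with Python 3.11.15, pandas 2.3.3 and matplotlib 3.10.9. The precision is limited by the number of arrays.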

Additional observations from a re-analysis of the deposited data

Results flagged for a closer look

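Probe sets without 1 gene symbol, which the comparisons by gene do not use, also changed between 24 h and 72 h of masitinib. Among 13670 of them 406 rose (2.97%) and 163 fell (1.19%). The largest rise went from 8.51, 8.26 and 8.24 to 10.89, 10.79 and 10.93 (change 2.54, SE 0.0777, adjusted p = 6.07e-09 from limma), and the largest fall from 8.71, 8.42 and 8.52 to 5.44, 5.14 and 5.52 (change -3.19, SE 0.103, adjusted p = 6.07e-09). Groups of 3 arrays are too small for a test of single outlying arrays.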

How the results depend on the processing

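Against 492 rises and 516 falls, the 6 arrays of 24 h and 72 h alone gave 273 and 264, a 2-fold threshold 112 and 127, and poly-A scaling 716 and 254, of which 741 were shared with the main calls and 0 ran the opposite way. Counted over all probe sets, named or not, 898 rose and 679 fell. An unmoderated analysis of variance with Storey q-values gave 366 and 378, loess scaling 507 and 466, and leaving out 1 array 350 to 473 rises and 383 to 489 falls. Of the 91 called list genes 27 passed 2-fold. The 942 probe sets whose change after 24 h differed from that between 12 h and 24 h became 2262 at adjusted p under 0.05, 600 at 2-fold, and 507 to 832 without 1 array, the range without 1 of 24 h being 507 to 611. In these cases the cause was not tested, apart from the thresholds and the arrays or probe sets counted, which act by construction. Under the alternatives run, 0 called changes of named genes turned direction (changes near 0 that were not called, as of PDGFRB and PSMA7, did change sign). Counted once for each probe set in each alternative, 161 entries lost their call. The other 2377 entries kept their side of the threshold, and they include probe sets that were never called. The replicate numbers were not taken as pairs. Deviations of same-numbered arrays of 24 h and 72 h correlated at -0.285, 0.275 and -0.189, and those of differently numbered ones at -0.347 to 0.461. With 3 arrays a group the deviations constrain one another, so these values cannot decide whether flasks were paired. With the replicate number as a block 447 rises and 470 falls were called, 908 of them shared. Scan dates and other batches were not given in the sources used here. The number of arrays, 3 a group, limits the precision.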

Other observations

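The genes that came next in size are given as values and were taken after these were seen. HTR2B, a serotonin receptor, rose from 8.93, 8.78 and 8.79 at 24 h to 10.41, 10.34 and 10.38 at 72 h (change 1.54, SE 0.0672, adjusted p = 4.03e-08 from limma), and its means at 0 h and 12 h were 7.22 and 7.76. MPDZ, a scaffold of cell junctions, rose by 1.59 (SE 0.0977) and the tetraspanin TSPAN2 by 1.58 (SE 0.107), both above each earlier time point. ABCA5, a transporter of the lysosome, rose by 1.43 (SE 0.0721) from a 24 h mean of 7.84, itself above a 12 h mean of 6.41. ATP2A2, the calcium pump of the endoplasmic reticulum, rose by 1.38 (SE 0.104) and KMT2D, a histone methyltransferase, by 1.37 (SE 0.0981), and neither had moved far from its 0 h mean by 24 h (7.75 to 7.55 for ATP2A2). TSHB, a chain of thyrotropin, rose by 1.65 (SE 0.172), from 4.95, 5.01 and 5.07 to 6.68, 6.51 and 6.78.

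Among the falls, CLEC2B, a C-type lectin, went from 7.66, 7.57 and 7.34 to 5.82, 5.66 and 5.97 (change -1.71, SE 0.103), and its means had gone down at each earlier step, from 9.49 at 0 h to 8.84 at 12 h. The muscle protein TTN, titin, went the other way first, with means of 6.77, 7.60 and 8.46 at 0, 12 and 24 h, and fell by 1.69 (SE 0.106) to 6.77. DKK3, a secreted protein of the Dickkopf family, had means of 3.61, 3.77 and 6.52 at those times and fell by 1.65 (SE 0.188). NEDD4, a ubiquitin ligase, fell by 1.53 (SE 0.0669) to a mean of 7.61 beside 7.82 at 0 h. SKAP2, an adaptor of SRC family kinases, fell by 1.51 (SE 0.071), from 10.46, 10.44 and 10.46 to 8.99, 8.78 and 9.04. CENPF, a kinetochore protein, fell by 1.51 (SE 0.132) on a probe set other than its brightest.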
